A study of Mus musculus with 34 samples.

Results

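Colonic macrophages that lack the IL-10 receptor alpha chain were compared after 2 interventions, antibiotics in the drinking water and loss of the p19 subunit of IL-23. The comparison set 4 libraries titled IL10R_abx (their titles end in IL10R_abx_160, IL10R_abx_161, IL10R_abx_495 and IL10R_abx_497) against 4 titled IL10R_P19 (IL10R_P19_100, IL10R_P19_105, IL10R_P19_106 and IL10R_P19_107), 8 of the 34 libraries of the series. All 8816 genes with a name in the table that holds both groups were taken, and the 6612 whose mean over its 18 libraries lay above the lower quartile were tested. The cells were sorted from the colonic lamina propria of C57BL/6 mice aged 6 to 7 weeks as CD45+ CD11b+ CD64+ cells with intermediate CD11c and without Ly6c or CD103. Both groups carry Il10ra deficiency, IL10R_abx mice received antibiotics, and IL10R_P19 mice had no treatment according to their labels. The other groups of the table were 3 libraries titled littermate_abx (antibiotics, genotype not stated), 2 titled CX (untreated, genotype not stated beyond the name) and 5 titled IL10R (Il10ra-deficient, untreated). No group had both antibiotics and p19 loss, and the labels do not name the antibiotics, the length of treatment, the meaning of 5C5 and CX in the titles, the cells in which a gene was deleted, or whether each library of a group is another animal. The p-values below therefore measure the spread between libraries, which may be technical.

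IL-10 is a cytokine that restrains macrophages through its receptor and the transcription factor STAT3, and mice or people without it develop colitis that depends on gut bacteria. IL-23, a pair of the p19 subunit (gene Il23a) and the p40 subunit (Il12b), is released by macrophages and drives lymphocytes to make IL-22 and IL-17. Antibiotics deplete the bacteria that start the process, and loss of p19 removes a relay while the bacteria remain, so the comparison asks how macrophages differ when the same receptor defect is met at these different points.

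The listed genes held 747046 to 1646887 reads per library in IL10R_abx and 1471395 to 2775974 in IL10R_P19, so low genes are measured less precisely in the antibiotic group. Values are normalised read counts, which are reads divided by 1 factor per library, and they are compared here between libraries of 1 gene and never between genes, since no gene length enters them. Il10ra read 8.71, 7.52, 1.70 and 2.88 in IL10R_abx and 12.2, 3.81, 6.51 and 12.2 in IL10R_P19, against 248 and 284 in CX and 145, 191 and 138 in littermate_abx. Every library of both deficient groups lay below every CX and littermate_abx library, and the 2 deficient groups did not differ past the threshold (log2 change -0.71, SE 0.52, adjusted p = 0.275, by limma as for all adjusted p-values of single genes below). Il10ra reached the tested set through the CX and littermate_abx libraries. At 1 to 4 reads in IL10R_abx and 4 to 24 in IL10R_P19 the test could hardly find a difference, so equal levels are not shown. Il23a and Il6 are not listed in this table, so loss of p19 could not be checked here. The defining macrophage markers Cx3cr1, Csf1r, Fcgr1, C1qa, C1qb, C1qc and Itgam were present in all 8 libraries, and Mertk is not listed. Library IL10R_P19_100 stood apart from the other 3 of its group on the first principal component (65.8% of the variance) at -37.4, among the untreated IL10R libraries (-43.9 to -36.4), where the others lay at -23.2 to -17.9. Library IL10R_abx_161 stood apart on the third component, at -38.9 against -9.94 to 11.4 for the other 3, and counts that rest on either library are given without it below.

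The deposited libraries differed in more than macrophage genes. Transcripts of colonocytes, the absorptive cells of the colon, made up 0.616, 0.836, 0.446 and 0.637% of the reads in IL10R_abx and 2.20, 2.51, 2.23 and 2.14% in IL10R_P19. Those of goblet and other secretory epithelial cells made up 0.275, 0.283, 0.246 and 0.233% against 3.08, 1.50, 2.06 and 1.76%. Neither share overlapped between the groups, and the 3 littermate_abx libraries (0.427, 0.596 and 0.431% and 0.219, 0.276 and 0.173%) lay near IL10R_abx while the 2 CX libraries (1.92 and 2.13% and 2.21 and 1.59%) lay near IL10R_P19. The 30 resident macrophage markers listed went the other way, with 6.38, 5.30, 6.71 and 7.08% in IL10R_abx and 2.44, 3.99, 3.75 and 3.85% in IL10R_P19, where IL10R_P19_100 was the lowest. Markers of T, NK and innate lymphoid cells stayed at or below 0.0207% of reads in all groups, and of that list only Cd4 and Thy1 are listed. Neutrophil markers made up 0.0132 to 0.0165% in IL10R_abx and 0.0134 to 0.0284% in IL10R_P19, with S100a8 at 2.18, 5.64, 0 and 5.77 against 3.48, 4.76, 3.91 and 4.57. Markers of B and plasma cells made up 0.0643, 0.0667, 0.0677 and 0.0842% against 0.0802, 0.106, 0.135 and 0.1001%, and all 5 tested members were called, in both directions. Jchain, which joins secreted antibodies, and Sdc1, a plasma cell surface protein that epithelium also makes, were lower (-1.79 and -1.67), and Cd79b, Cd22 and Xbp1 were higher (1.02, 0.89 and 0.39). Without IL10R_abx_160 and IL10R_abx_161 1 of the 5 was called, and 3 without IL10R_P19_100 (marker scaling: 0 higher and 3 lower, median -0.56). Of 5 dendritic cell markers 2 were higher and 1 lower (marker scaling: 1 higher and 2 lower, median -0.73), and of 10 stromal and endothelial markers 1 was lower (marker scaling: 0 higher and 9 lower, median -1.04). Over all tested genes 25.8% were called higher and 22.4% lower. The part of these cells in the differences below was not tested, and in bulk RNA fewer cells of a type and less RNA per cell cannot be told apart.

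**Figure D1:**
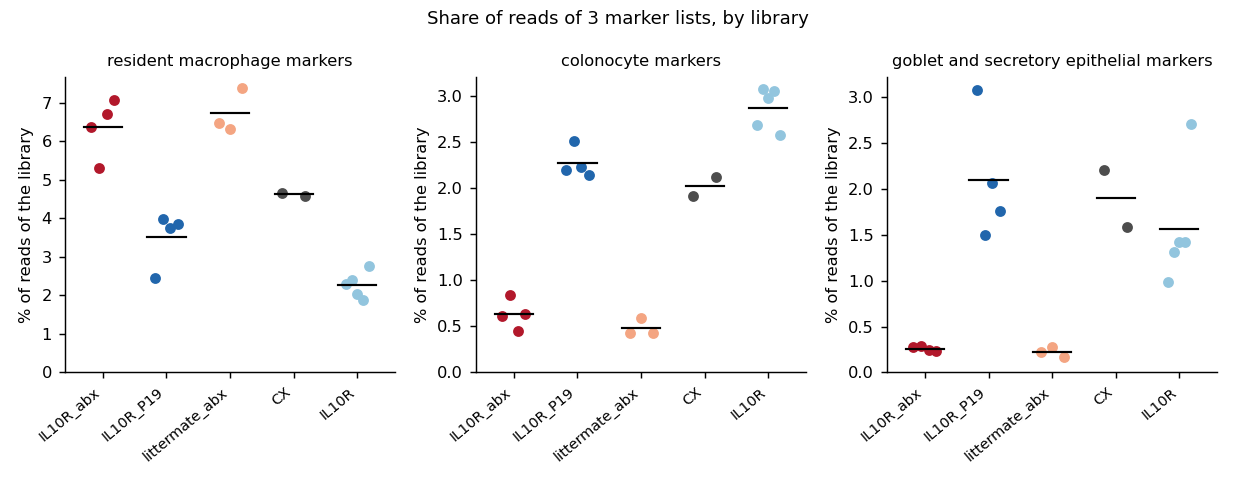
Share of each library's reads (vertical axes, percent, starting at 0) that came from 3 marker lists in the 5 groups of the table, with 1 point per library and a bar at the group mean. Colonocyte and goblet shares are low in all 7 antibiotic-treated libraries and high in the other 11, and the resident macrophage share is 5.30 to 7.08% in IL10R_abx against 2.44 to 3.99% in IL10R_P19.

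The 2 groups differed in a large part of the genes. Of 6612 genes tested, 3191 (48.3%) passed an adjusted p of 0.05, 1707 (25.8%) higher in IL10R_abx and 1484 (22.4%) lower, and 1323 of them by at least 2-fold. The 4 values of one group lay entirely above the 4 of the other for 2680 genes (40.5%), 1419 (21.5%) with IL10R_abx higher and 1261 (19.1%) lower. Without library IL10R_P19_100 the count was 2752, and without IL10R_abx_161 it was 3213, with no gene of the shared calls changing direction. These counts are relative to the middle gene, because each library was scaled so that its typical gene sits at about the same value. Scaled instead to the geometric mean of the 7 macrophage markers (an alternative added after the data were seen), the median change over all genes moved from 0.04 to -0.89 on the log2 scale, and 164 genes were higher (3.45% of the calls, against 53.5%) and 4590 lower. Changes of macrophage genes below are therefore relative to the other genes of the library. Where a list's count of calls between the interventions is given, its count under the marker scaling is in the same paragraph. Excepted are lists written after the values were seen and counts repeated beside those of littermates.

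**Figure D2:**
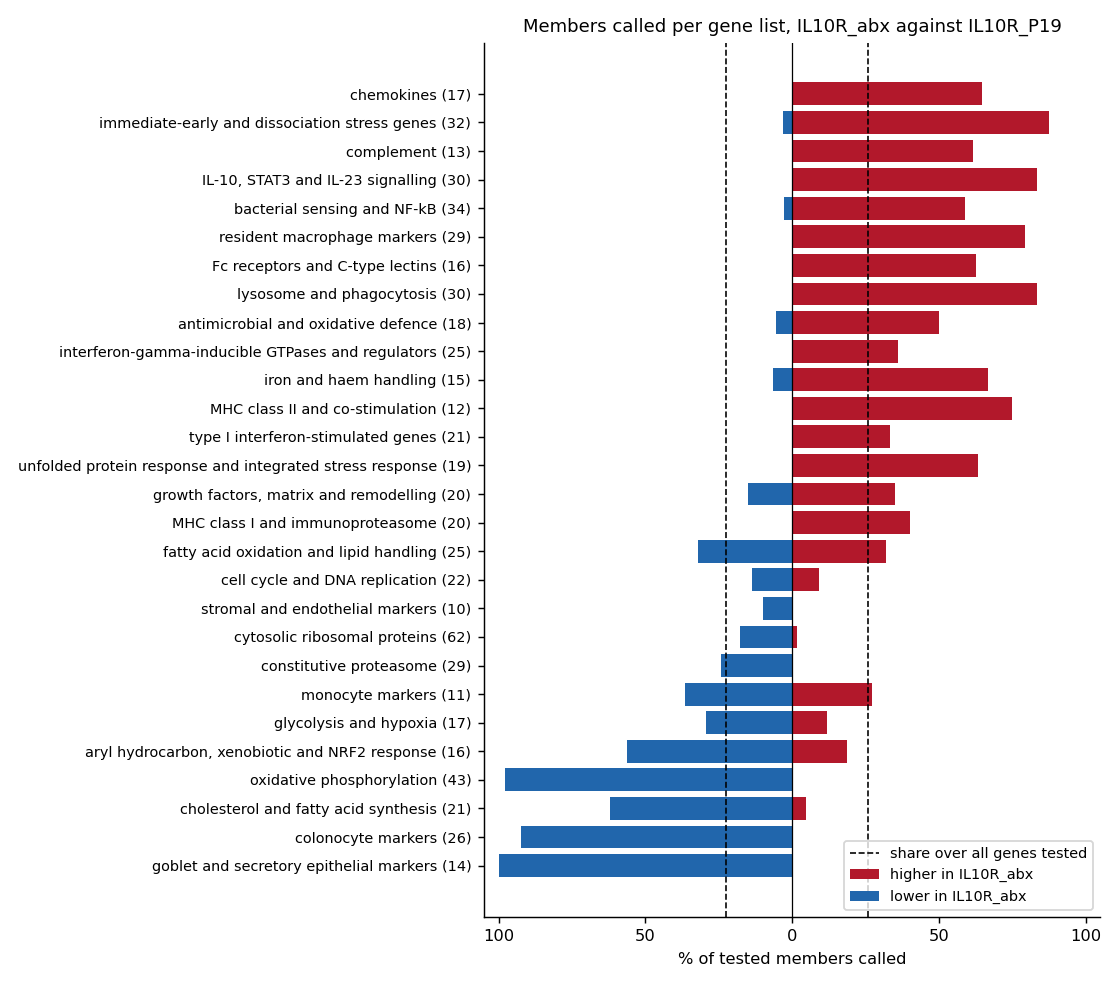
Percent of each list's tested members (number in parentheses) called higher (right, red) or lower (left, blue) in IL10R_abx than in IL10R_P19, for the lists with at least 10 tested members in order of their median change. The dashed lines mark the shares over all genes tested, 25.8% higher and 22.4% lower, and oxidative phosphorylation, with 42 of 43 members lower, lies farthest from them among the lists that are not epithelial markers.

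Nos2 and Reg3b, among the genes with the largest rise in untreated deficient macrophages, were low after either intervention. Nos2, the inducible nitric oxide synthase, read 2.18, 9.40, 1.70 and 2.88 in IL10R_abx and 11.3, 4.76, 2.60 and 6.10 in IL10R_P19, against 434, 237, 164, 53.9 and 16.9 in IL10R. The 2 interventions overlapped, and the interval of their log2 difference was wide (-2.55 to 1.35, adjusted p = 0.628). Reg3b, an antibacterial lectin of the gut, read 78.4, 5.64, 124 and 0 in IL10R_abx and 8.70, 87.5, 1.30 and 2.03 in IL10R_P19, against 7459, 258, 1535, 2808 and 821 in IL10R. Its relative Reg3g read 43.5, 3.76, 47.5 and 0 against 13.04, 26.6, 1.30 and 1.52. Both varied between libraries by more than the groups did (log2 intervals -2.21 to 3.94 and -2.09 to 3.18), so neither a difference nor equality of the interventions is shown. Il12b, the p40 subunit, was too low to be tested, at 3 to 5 reads per library in IL10R_abx and 0 to 12 in IL10R_P19 (values 4.80 to 10.9 and 0 to 11.4, against 8.85 to 42.9 in IL10R).

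Genes were next chosen by their change between untreated IL10R and CX, from libraries that the comparison of the interventions does not use. Of the 10 named genes with the largest rise in IL10R (Reg3b, Reg3g, Clca4b, Nos2, Lrg1, Plet1, Tac1, Cd300lf, Iigp1 and Trim40), 9 did not pass between IL10R_abx and IL10R_P19. Clca4b, Nos2, Lrg1, Plet1 and Tac1 reached the tested set, whose means lie above 40.4, through the IL10R libraries. Their means were at most 13.6 in IL10R_abx and 17.4 in IL10R_P19. The test could hardly find a difference at such values, so it shows no equality of the interventions. Reg3g, Cd300lf and Trim40 also entered through the IL10R libraries. Their means were 23.7, 36.9 and 8.81 in IL10R_abx and 10.6, 21.4 and 24.8 in IL10R_P19. Clca4b read 18.5 to 915 in IL10R, 4.35, 3.76, 13.6 and 0 in IL10R_abx and 3.48, 9.52, 3.91 and 3.05 in IL10R_P19. Lrg1 read 19.3 to 1895 in IL10R, 13.1, 9.40, 18.7 and 13.5 in IL10R_abx and 7.83, 8.56, 13.7 and 3.05 in IL10R_P19. All 8 libraries lay below the lowest IL10R library for both genes, as they did for 7 of the 10. They did not for Trim40 (20.2 to 29.5 in IL10R_P19, lowest IL10R library 25.7), for Cd300lf (25.4 to 47.9 in IL10R_abx and 16.2 to 30.0 in IL10R_P19, against 19.3 to 325) or for Iigp1, an interferon-induced GTPase (105.3 to 254 and 54.7 to 150.4 against 61.9 to 432). The gene that passed was Trim40, which was lower in IL10R_abx (10.9, 11.3, 10.2 and 2.88 against 22.6, 29.5, 20.2 and 26.9, log2 change -1.52, SE 0.53, adjusted p = 0.0243). All of these values lie below the 40.4 of the filter, so this pass rests on low values. Of the 10 with the largest fall in IL10R (Fcrls, Clps, Ang4, Npl, Ltc4s, Folr2, Tanc2, Hspa8, Mrc1 and Pgf) 5 were higher in IL10R_abx, 2 were lower and 3 did not pass. The lower ones were Ang4 (-5.12) and Clps, the pancreatic lipase cofactor colipase, which read 5.20, 7.26, 21.9, 17.5 and 139 in IL10R, 229 and 134 in CX, 17.4, 5.64, 10.2 and 11.5 in IL10R_abx and 307, 84.7, 165 and 108 in IL10R_P19 (log2 change -3.69, SE 0.71, adjusted p = 3.82e-04).

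Most of the genes called between IL10R and CX also differed between the interventions. Of all 399 genes lower in IL10R than in CX, 314 (78.7%, against 25.8% of all genes) were higher in IL10R_abx than in IL10R_P19, 15 were lower and 70 did not pass, with a median change of 0.98. Of the 256 genes higher in IL10R than in CX, 167 (65.2%, against 22.4%) were lower in IL10R_abx, 11 were higher and 78 did not pass, with a median of -0.69. The choice rests on 2 CX libraries, and without CX 1 or CX 3 only 20 or 94 genes were called between IL10R and CX in place of 655 (9.91% of tested genes, 6.03% lower and 3.87% higher in IL10R). Under the marker scaling 63 of the 399 were higher in IL10R_abx. Mrc1, the mannose receptor of tissue macrophages, read 84.5, 104, 196, 142 and 254 in IL10R and 839 and 631 in CX, then 781, 1456, 1634 and 1696 in IL10R_abx and 442, 443, 483 and 463 in IL10R_P19 (log2 change 1.54, SE 0.29, adjusted p = 2.84e-04). IL10R_P19 lay between IL10R and CX for this gene, and 3 of the 4 IL10R_abx libraries lay above CX. Fcrls, an Fc receptor-like gene of resident macrophages, read 3.90, 45.6, 50.7, 38.0 and 113 in IL10R, 396 and 439.5 in CX, 418, 265, 573 and 680.3 in IL10R_abx and 122, 153, 155 and 159 in IL10R_P19 (log2 change 1.63, SE 0.63, adjusted p = 0.0414). Igf1, a growth factor, read 427, 305, 444 and 521 against 354, 225, 253 and 225 after the interventions and 38.4 to 187 in IL10R, and its difference between them did not pass (log2 change 0.68, SE 0.37, adjusted p = 0.146).

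**Figure D3:**
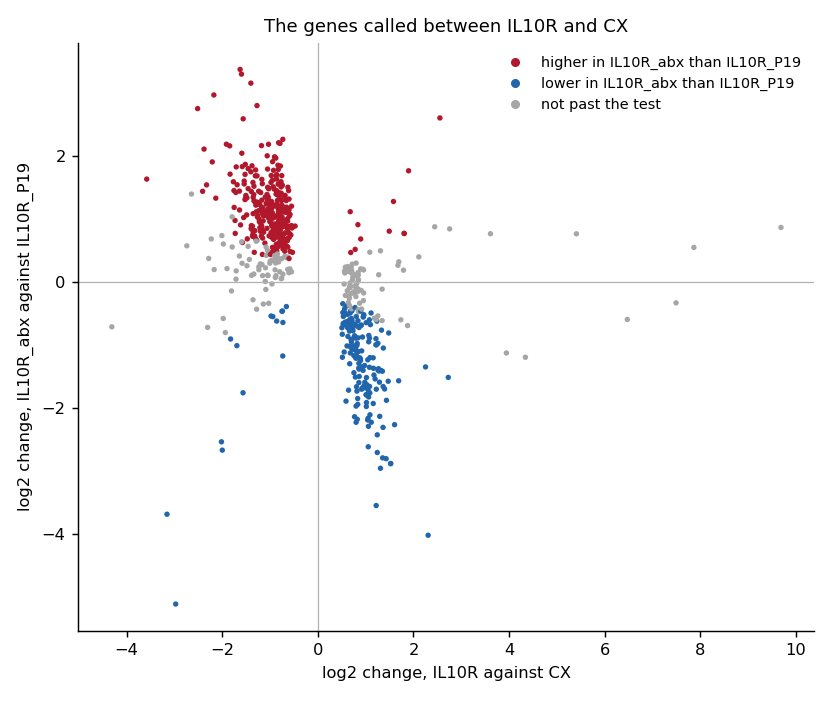
Log2 change between IL10R_abx and IL10R_P19 (vertical) against the log2 change between untreated IL10R and CX (horizontal) for the 655 genes called in the second comparison, 1 point per gene. Most genes lower in IL10R (left) are higher in IL10R_abx (red, 314 of 399). Of the 10 named genes with the largest rises in IL10R (far right) 9 did not pass between the interventions (grey), several of them being near the floor in both groups.

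Genes of resident macrophages were higher after antibiotics than after p19 loss. Of 29 tested resident macrophage markers 23 were higher in IL10R_abx (79.3%, against 25.8% of all genes) and 0 lower. The median change was 1.09 against 0.04 over all genes, and 20 were higher without IL10R_P19_100. Lyve1, the hyaluronan receptor, read 511, 386, 1049.5 and 468 in IL10R_abx and 35.7, 59.0, 74.2 and 58.9 in IL10R_P19 (log2 change 3.32, SE 0.38, adjusted p = 2.58e-06). Cd163, the scavenger receptor for haemoglobin bound to haptoglobin, read 662, 457, 632 and 651 against 50.4, 62.8, 101 and 68.6 (log2 change 3.10, SE 0.39, adjusted p = 7.84e-06). The lowest antibiotic library exceeded the highest p19 library for each, which was a condition of their choice. Folr2, a folate receptor, rose by 2.75 (SE 0.63) and Stab1, a scavenger receptor, by 2.16 (SE 0.29). Among the largest rises that are not on this list, Fcna, a lectin that activates complement, rose by 2.52 (SE 0.65), Cbr2, a carbonyl reductase, by 2.69 (SE 0.25) and AI607873 by 2.59 (SE 0.24). The 2 CX libraries read 78.7 and 58.6 for Lyve1 and 54.9 and 72.9 for Cd163, within or near the range of IL10R_P19. C1qa, a chain of the first complement component, read 13168, 10790.0, 10861 and 10800.1 in IL10R_abx and 3721, 5158, 4012 and 5079 in IL10R_P19 (log2 change 1.35, SE 0.15, adjusted p = 1.11e-06). Cx3cr1, the fractalkine receptor of gut macrophages, did not differ past the threshold (261, 293, 590.0 and 715 against 208, 493, 406 and 480.0, log2 change 0.17, SE 0.30, adjusted p = 0.67), and within IL10R_abx its libraries IL10R_abx_160 and IL10R_abx_161 lay below IL10R_abx_495 and IL10R_abx_497. Scaled to the 7 markers, of which all are on this list or that of phagocytosis, the counts were 6 higher and 4 lower, median 0.14.

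Of 11 tested monocyte markers 3 were higher (27.3%, against 25.8% of all genes) and 4 lower (36.4%, against 22.4%). With so few members these counts lie near the background (median -0.19, and under the marker scaling 1 higher and 7 lower, median -1.13). The largest rise was of F13a1, the A chain of coagulation factor XIII (1328, 889.6, 1679 and 1068 in IL10R_abx against 101, 128, 253 and 168 in IL10R_P19, log2 change 2.97, SE 0.50, adjusted p = 1.50e-04), and the largest fall of Cd177, described below. Itga4, an integrin chain, rose by 1.04 (SE 0.21), and Fn1, fibronectin, fell by 0.80 (SE 0.32). Ly6c1, a gene of the Ly6C antigen, did not pass (log2 change -0.70, SE 0.38, adjusted p = 0.138), nor did Ccr2, the receptor with which monocytes leave the blood (log2 change -0.19, SE 0.34, adjusted p = 0.68). Plac8 fell by 2.10 on the log2 scale and S100a6 by 1.21, and S100a4 rose by 1.68 with a wide spread between the antibiotic libraries (570.2, 97.8, 975 and 383, against 124, 119.9, 169 and 76.7).

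Genes of the IL-10 and STAT3 response were higher in IL10R_abx, in 2 groups that both lack the alpha chain of the receptor. Of 30 tested members 25 were higher (83.3%, against 25.8% of all genes) and 0 lower, median 1.13. Without IL10R_P19_100 23 were higher (marker scaling: 10 higher and 4 lower, median 0.18). Socs3, the feedback inhibitor of STAT3 signalling, read 2736, 2413, 1584 and 1698 in IL10R_abx and 285, 355, 443 and 347 in IL10R_P19 (log2 change 2.54, SE 0.25, adjusted p = 4.10e-07). Sbno2, a transcriptional co-regulator induced by IL-10, read 614, 577, 534 and 947 against 127, 139.9, 131 and 128 (log2 change 2.30, SE 0.20, adjusted p = 1.05e-07). No value of one group reached the other for either gene, which for Socs3 was a condition of its choice. Etv3, a repressor among the targets of IL-10, rose by 1.85 (SE 0.15) and Stat3 itself by 1.42 (SE 0.16). Arid5a, which stabilises Stat3 and Il6 messenger RNA, read 901, 781, 539 and 736 against 69.6, 71.4, 111 and 86.4 (log2 change 3.12, SE 0.26, adjusted p = 1.10e-07). Batf, a partner of the AP-1 factors, rose by 3.13 (SE 0.26). The cytokine Il10, singled out after its values were seen, read 102, 137, 52.6 and 90.3 in IL10R_abx and 24.3, 34.3, 58.6 and 34.0 in IL10R_P19, groups that overlapped in 1 library each (log2 change 1.31, SE 0.28, adjusted p = 6.91e-04). Il10rb, the second chain of the receptor, rose by 1.00 (SE 0.16), and receptors that share STAT3, Il6ra and Il21r, rose by 1.18 and 1.33 (SE 0.25 and 0.19).

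The 250 bases before the RefSeq starts of Socs3 and Sbno2 are printed because these genes head the list and both hold the core of a STAT site. The motif searched was TTCNNNGAA, which reads the same on both strands, and its matches are in capitals. The windows are those of GRCm38.p6, 5′ to 3′ on the gene's strand (chr11:117969367-117969616, minus strand for Socs3, chr10:80102703-80102952, minus strand for Sbno2, which has 3 starts, 2 of them with a match).
Socs3: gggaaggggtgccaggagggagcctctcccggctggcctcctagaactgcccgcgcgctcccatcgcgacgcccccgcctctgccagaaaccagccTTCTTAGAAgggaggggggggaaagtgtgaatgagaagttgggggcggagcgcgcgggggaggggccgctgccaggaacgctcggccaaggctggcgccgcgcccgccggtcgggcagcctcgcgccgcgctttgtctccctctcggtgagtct
Sbno2: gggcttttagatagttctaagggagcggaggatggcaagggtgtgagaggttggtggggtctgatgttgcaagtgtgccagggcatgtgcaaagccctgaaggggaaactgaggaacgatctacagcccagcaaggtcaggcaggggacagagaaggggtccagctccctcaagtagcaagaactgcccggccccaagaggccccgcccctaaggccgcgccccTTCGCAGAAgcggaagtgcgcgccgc
Of the 25 called members 20 had an entry, and 4 of these (Bcl6, Sbno2, Socs3 and Zfp36) held a match in at least 1 window, 6 of 27 windows, where 7.02% of all 32851 windows did. A match is a description of the letters and not evidence of binding.

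Genes of bacterial sensing and NF-kB were also higher in the mice given antibiotics. Of 34 tested members 20 were higher (58.8%, against 25.8% of all genes) and 1 lower, median 1.09. The count higher was 20 without IL10R_P19_100 and 21 without IL10R_abx_161 (marker scaling: 7 higher and 10 lower, median 0.15). Tlr2, the receptor for bacterial lipoproteins, read 287, 555, 226 and 309 in IL10R_abx and 45.2, 53.3, 55.3 and 69.6 in IL10R_P19 (log2 change 2.54, SE 0.29, adjusted p = 2.63e-06). Tlr4, the receptor for lipopolysaccharide, rose by 1.22 (SE 0.19) and its co-receptor Cd14 by 1.12 (SE 0.19). Map3k8, the kinase that carries Toll-like receptor signals to ERK, read 319.9, 286, 249 and 325 against 45.2, 61.8, 74.2 and 63.5 (log2 change 2.26, SE 0.19, adjusted p = 1.05e-07). All 5 NF-kB subunits rose, Nfkb2 by 1.65, Rela by 1.34, Rel by 1.32, Nfkb1 by 1.24 and Relb by 1.23, and so did the inhibitors Nfkbia (1.35), Nfkbib (1.26) and Nfkbie (1.13). Inflammasome genes did not move together, since Nlrp3, the sensor, rose by 1.97 (SE 0.30), Casp4, which senses cytosolic lipopolysaccharide, rose by 2.23 (SE 0.32), and Pycard, the adaptor, fell by 0.64 (SE 0.18). The adaptor kinases Irak1 (0.16), Irak2 (0.42) and Irak4 (0.27) did not pass.

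Windows of 2 of these genes are shown because matches to the kappaB consensus, the site NF-kB binds, were common among the members. Both strands were searched, overlapping matches are joined, and matches are in capitals (Nfkbia, chr12:55492648-55492897, minus strand, 1 match; Tlr2, chr3:83841609-83841858, minus strand, 2 matches).
Nfkbia: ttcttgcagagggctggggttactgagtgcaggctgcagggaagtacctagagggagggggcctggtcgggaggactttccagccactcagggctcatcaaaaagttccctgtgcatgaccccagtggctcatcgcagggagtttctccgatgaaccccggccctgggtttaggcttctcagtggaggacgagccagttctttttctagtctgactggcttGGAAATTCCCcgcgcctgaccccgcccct
Tlr2: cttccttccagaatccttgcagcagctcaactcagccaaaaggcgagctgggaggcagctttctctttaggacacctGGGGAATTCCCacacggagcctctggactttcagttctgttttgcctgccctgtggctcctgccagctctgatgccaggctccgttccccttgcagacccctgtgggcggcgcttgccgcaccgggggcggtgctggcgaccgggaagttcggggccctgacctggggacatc
Of the 20 members called higher 14 had an entry, and 8 of these (Casp4, Nfkb2, Nfkbia, Nfkbie, Nlrp3, Rel, Tlr2 and Tnfaip3) held a match, in 11 of 20 windows. Over all windows of the table the share was 7.25%, and no test was made of the difference.

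Chemokines that draw monocytes and the cytokine TNF were higher in IL10R_abx, and Il1b, which encodes IL-1 beta, did not pass. Of 17 tested chemokines 11 were higher (64.7%, against 25.8% of all genes) and 0 lower, median 1.26 (marker scaling: 4 higher and 0 lower, median 0.31). Ccl2, the main ligand of Ccr2, read 775, 1166, 775 and 725 in IL10R_abx and 69.6, 81.8, 85.3 and 86.4 in IL10R_P19 (log2 change 3.37, SE 0.29, adjusted p = 1.49e-07). Ccl7, its neighbour among the monocyte chemokines, read 585, 1138, 534 and 736 against 57.4, 83.7, 69.0 and 79.8 (log2 change 3.30, SE 0.31, adjusted p = 3.22e-07). Library IL10R_abx_161 was the highest for both, and the other 3 still lay far above all 4 p19 libraries, a lack of overlap that their choice required. Ccl12 rose by 1.94 (SE 0.39), Ccl4 by 1.99 (SE 0.40), and Pf4, platelet factor 4, which gut macrophages also make, by 1.91 (SE 0.45). The interferon-induced Cxcl9 (0.87, adjusted p = 0.214) and Cxcl10 (0.65, adjusted p = 0.2) and the T cell chemokine Ccl5 (0.94, adjusted p = 0.317) did not pass. Tnf read 372, 523, 248 and 269 against 33.0, 75.2, 143 and 104 (log2 change 2.10, SE 0.41, adjusted p = 4.27e-04). Tnfsf9, the ligand of 4-1BB, rose by 2.64 (SE 0.27), Osm, oncostatin M, by 1.34 (SE 0.24) and Il15 by 1.16 (SE 0.22), whereas Il18 fell by 0.78 (SE 0.21). Il1b read 2000.2, 3314, 1229 and 1575 against 782, 1428, 2042 and 1799, groups that overlapped (log2 change 0.41, SE 0.31, adjusted p = 0.297, interval -0.25 to 1.07), and its change was -0.03 without IL10R_abx_160 and IL10R_abx_161. Gdf15, a stress-induced member of the TGF-beta family, read 1578, 2573, 826 and 1529.7 against 155, 146, 208 and 169.7 (log2 change 3.16, SE 0.29, adjusted p = 2.66e-07).

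**Figure D4:**
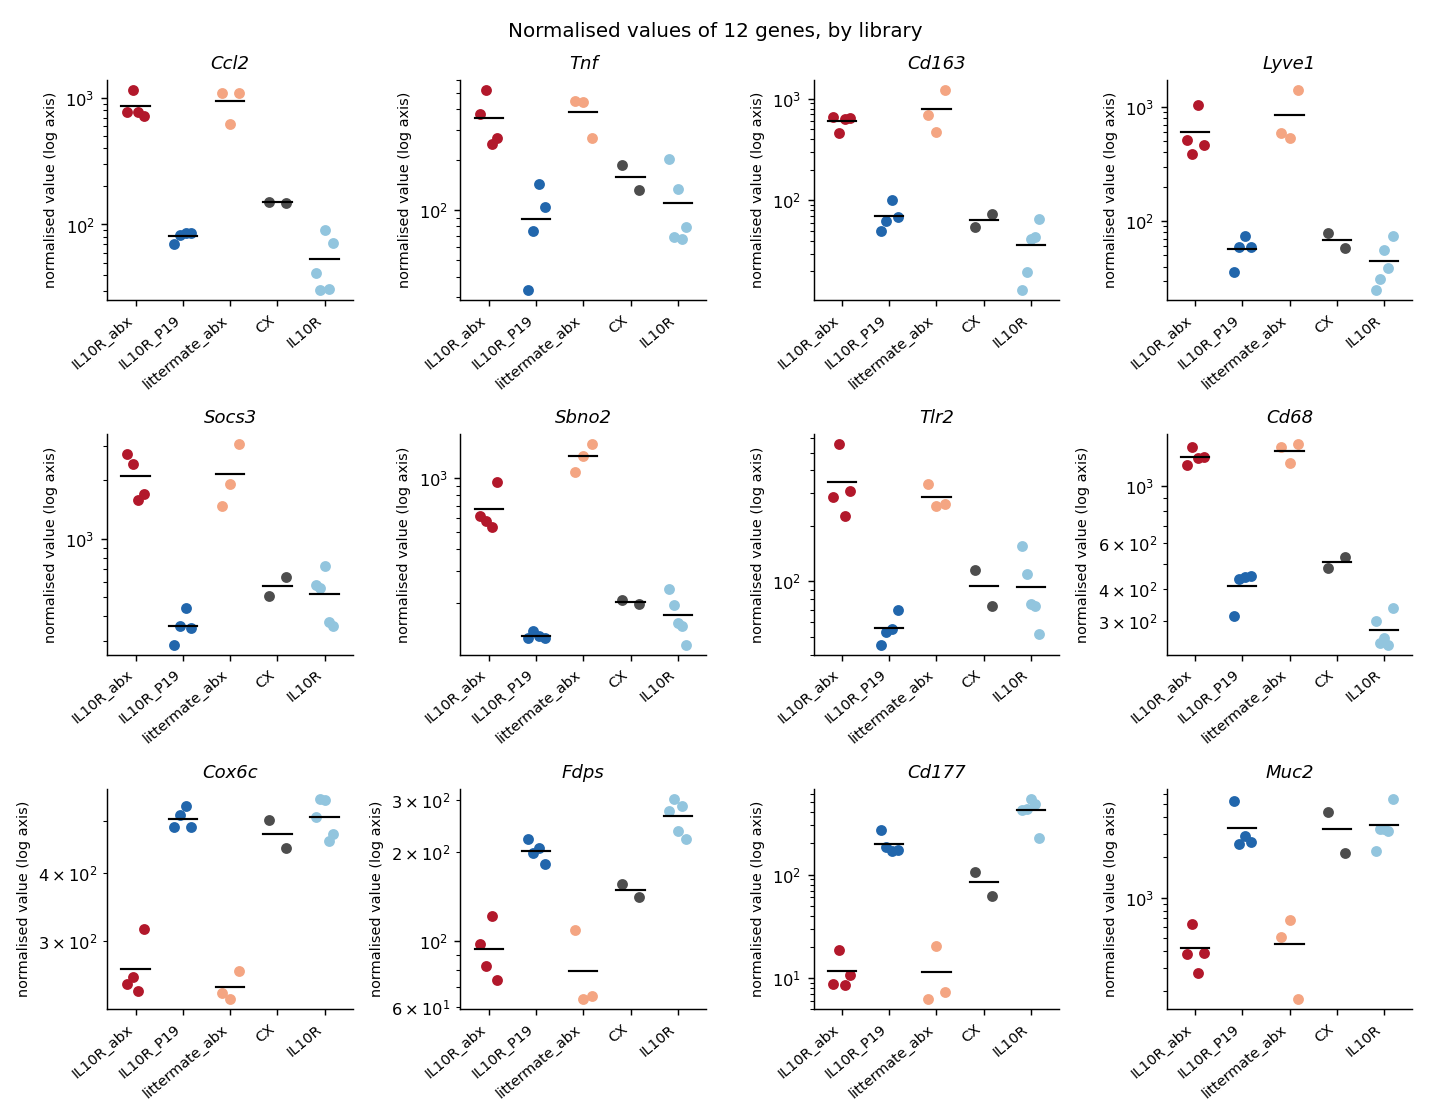
Normalised values of 12 genes (vertical log axes, reads divided by 1 factor per library) in the 5 groups, with 1 point per library and a bar at the group mean. In each panel the 4 IL10R_abx libraries lie on one side of the 4 IL10R_P19 libraries without overlap, and the littermate_abx libraries lie with IL10R_abx. For Ccl2, Cd163, Lyve1, Socs3, Tlr2, Cd177 and Muc2 the lack of overlap was a condition of their choice.

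Immediate-early genes, which respond within minutes to signals and also to the handling of cells, were higher as a group in IL10R_abx. Of 32 tested 28 were higher (87.5%, against 25.8% of all genes) and 1 lower, median 1.16. Without IL10R_abx_160 and IL10R_abx_161 23 were higher (marker scaling: 5 higher and 2 lower, median 0.22). Klf2, a factor that quiets macrophages, read 962, 859.5, 702 and 477 in IL10R_abx and 110.4, 173, 185 and 167 in IL10R_P19 (log2 change 2.21, SE 0.21, adjusted p = 2.86e-07). Gadd45b rose by 1.95 (SE 0.21), Ier3 by 1.91 (SE 0.19), Csrnp1 by 2.41 (SE 0.28) and Egr1 by 1.68 (SE 0.27). Klf4 was the member that fell (-0.61, SE 0.21). The heat shock genes Hspa1a, Hspa1b and Hsph1 rose by 1.65, 1.71 and 1.73. Hspa1a and Hspa1b are near-identical copies that can share reads. Whether time or temperature of the cell isolation differed between the groups is not given in the labels, and its part was not tested.

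The unfolded protein and integrated stress response followed the same direction, with 12 of 19 members higher (63.2%, against 25.8% of all genes) and 0 lower. The median was 0.51 (marker scaling: 2 higher and 6 lower, median -0.44). Ddit3, the factor CHOP, rose by 1.83 (SE 0.23), Ppp1r15a, which restores translation, by 1.78 (SE 0.23) and Atf4, the main transcription factor of the response, by 1.34 (SE 0.20). The chaperone Hsp90b1 rose by 0.78 (SE 0.14).

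Genes of the lysosome and of uptake were higher after antibiotics. Of 30 tested 25 were higher and 0 lower, median 0.88, and 22 were higher without IL10R_P19_100 (marker scaling: 2 higher and 4 lower, median -0.06). Cd68, a lysosomal glycoprotein of macrophages, read 1208, 1426, 1285 and 1305 in IL10R_abx and 313, 435, 444 and 448 in IL10R_P19 (log2 change 1.68, SE 0.14, adjusted p = 1.05e-07). The proteases Ctsb and Ctsd rose by 1.38 and 1.34 (SE 0.13 and 0.17) and Gla, alpha-galactosidase, by 1.60 (SE 0.21). Psap (0.39) and the receptor Axl (-0.01) did not pass. Among Fc receptors and C-type lectins 10 of 16 were higher and 0 lower (median 1.01; marker scaling: 2 higher and 3 lower, median 0.06), with Fcgr3 at 1.05 and Fcer1g, the chain through which Fc receptors signal, at 1.27. Of 13 complement genes 8 were higher, Cfp, properdin, by 1.79 (SE 0.20; marker scaling of the list: 3 higher and 3 lower, median 0.18). The NADPH oxidase, which makes the oxidative burst, had subunits that rose on the list of defence genes, among them Ncf1 by 1.44, Ncf4 by 0.95, Cybb by 0.94 and Cyba by 0.84, while Pglyrp1, a secreted peptidoglycan-binding protein, fell by 2.53 (SE 0.22). The list of antimicrobial and oxidative defence as a whole had 9 of 18 members higher and 1 lower (marker scaling: 1 higher and 2 lower, median -0.10). Over all genes tested 25.8% were higher and 22.4% lower, the background for each list of this paragraph.

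Antigen presentation and interferon genes moved less uniformly. Among 12 genes of MHC class II or co-stimulation 9 were higher and 0 lower (median 0.68), H2-Aa by 0.85, Cd74, the invariant chain, by 0.63 and Cd40 by 1.50. Of 20 MHC class I and immunoproteasome genes 8 were higher and 0 lower (median 0.30), of 25 interferon-gamma-inducible genes 9 and 0 (median 0.84), and of 21 type I interferon-stimulated genes 7 and 0 (median 0.53). The shares higher were 75, 40, 36 and 33.3% in that order, against 25.8% of all genes, so the interferon counts lie nearer that background than the MHC class II count. Irf1, which switches on many of these genes, rose by 1.77 (SE 0.28), Gbp2, a GTPase that attacks intracellular microbes, by 1.76 (SE 0.44) and Oas2, a sensor of double-stranded RNA, by 2.21 (SE 0.37). These counts rested on libraries IL10R_abx_160 and IL10R_abx_161. Without them 3, 3, 4 and 4 members of the 4 lists were higher, while 1611 of all 6612 genes were, and without IL10R_abx_161 alone 9, 4, 5 and 6. Without IL10R_P19_100 the counts were 7, 5, 6 and 4. Under the marker scaling the class II list had 0 higher and 1 lower, median -0.27, the class I list 0 higher and 11 lower, median -0.64, the interferon-gamma list 1 higher and 4 lower, median -0.10 and the type I list 1 higher and 8 lower, median -0.42.

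Genes of oxidative phosphorylation were lower after antibiotics almost without exception. Of 43 subunits of the respiratory chain and ATP synthase 42 were lower in IL10R_abx (97.7%, against 22.4% of all genes) and 0 higher. The median was -0.69, and Cox5a was the 1 that did not pass. The count of lower members was 35 without IL10R_P19_100 and 29 without IL10R_abx_495 and IL10R_abx_497. The marker scaling, under which 4590 of all 6612 genes were lower, gave 0 higher and 43 lower, median -1.63. It lowers genes in general, so it could not have turned this direction. Cox6c, a subunit of cytochrome c oxidase, read 250.3, 258, 242 and 316 in IL10R_abx and 487, 511, 531 and 487 in IL10R_P19 (log2 change -0.92, SE 0.12, adjusted p = 5.27e-06). Ndufv2, of complex I, read 152, 169, 189.9 and 203 against 383, 345, 304 and 313 (log2 change -0.91, SE 0.14, adjusted p = 2.27e-05), and Atp5d, of the ATP synthase, 1334, 1254, 1283 and 1479 against 2697, 2375, 2255 and 2248 (log2 change -0.84, SE 0.11, adjusted p = 8.54e-06). The groups did not overlap for these 3 genes, and they did not overlap for 33 of the 43 subunits in all. Over all genes tested 19.1% lay without overlap and lower in IL10R_abx. Colonocytes also express these genes, and the share of colonocyte reads given above was lower in IL10R_abx too. Its part in these changes was not tested.

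Cholesterol and fatty acid synthesis was lower as well, with 13 of 21 members lower and 1 higher (median -0.79; marker scaling: 0 higher and 20 lower, median -1.71). Fdps, an enzyme of the pathway to squalene, read 97.9, 82.8, 122 and 74.0 in IL10R_abx and 222, 199.8, 207 and 182 in IL10R_P19, without overlap (log2 change -1.12, SE 0.18, adjusted p = 4.34e-05). Fdft1, which makes squalene, fell by 1.11 (SE 0.18), and Scd2, a fatty acid desaturase, by 1.47 (SE 0.28). Fads1, another desaturase, was the member that rose (0.89, SE 0.17). The regulators Srebf1 (-0.21) and Srebf2 (-0.30) did not pass. In fatty acid oxidation and lipid handling 8 of 25 rose and 8 fell (marker scaling: 0 higher and 14 lower, median -0.79). These are 32% each, not far from the 25.8% and 22.4% of all genes. The enzymes Cpt2 (-1.18) and Acadl (-0.63) were among those lower and the lipid droplet protein Plin2 (1.21) and the lipid receptor Trem2 (1.05) among those higher. Glycolysis had 2 of 17 higher (11.8%), below that background, and 5 lower (29.4%), near it (median -0.21, and under the marker scaling 0 higher and 13 lower, median -1.15). Its hexokinases went opposite ways, since Hk1 fell by 0.69 and Hk3 rose by 1.25.

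Iron and haem handling was higher in 10 of 15 members (66.7%, against 25.8% of all genes) and lower in 1. The median was 0.80 (marker scaling: 2 higher and 5 lower, median -0.14). Hmox1, which breaks down haem, read 1154, 1602, 612 and 552 in IL10R_abx and 113, 159, 176 and 259.6 in IL10R_P19 (log2 change 2.39, SE 0.30, adjusted p = 6.02e-06). Slc11a2 and Slc11a1, which carry iron across membranes, rose by 1.41 and 1.05, the ferritin chains Fth1 and Ftl1 by 0.54 and 0.86, and Tfrc, the transferrin receptor, fell by 1.14 (SE 0.34). Hmox1 is also on the list of the aryl hydrocarbon and NRF2 response, where most members went the other way, 9 of 16 lower and 3 higher (median -0.62; marker scaling: 1 higher and 11 lower, median -1.55). The glutathione enzymes Gstp1, Mgst1 and Gclm fell by 1.62, 1.19 and 1.02 (SE 0.22, 0.16 and 0.15). Cytosolic ribosomal proteins stayed below the background, with 11 of 62 lower and 1 higher (7 lower without either IL10R_P19_100 or IL10R_abx_161). So did cell cycle genes (2 higher and 3 lower of 22; 3 called without IL10R_P19_100). The constitutive proteasome had 7 of 29 lower, near the 22.4% of all genes, and 3 without IL10R_P19_100. Under the marker scaling, with 4590 of all 6612 genes lower, 57 of the ribosomal (median -1.10), 19 of the cell cycle (median -1.04) and 29 of the proteasome genes (median -1.12) were lower and 0 higher. Growth factor and matrix genes had 7 of 20 higher and 3 lower (marker scaling: 2 higher and 10 lower, median -0.61). These are 35% and 15%, against 25.8% and 22.4% of all genes. Timp2, an inhibitor of matrix proteases, stood at 1.63 and Mmp19, a matrix protease, at 1.69.

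The largest falls in IL10R_abx were of genes that epithelial cells make. All 14 tested goblet and secretory markers and 24 of 26 colonocyte markers (92.3%) were lower, against 22.4% of all genes. Their medians were -2.91 and -1.76, and 14 and 24 were lower without IL10R_P19_100 (marker scaling: 0 higher and 14 lower, median -3.86, and 0 higher and 25 lower, median -2.71). Ang4, an antibacterial ribonuclease of Paneth and goblet cells, read 37.0, 73.3, 40.7 and 36.5 in IL10R_abx and 3115, 741, 1798 and 1549.8 in IL10R_P19 (log2 change -5.12, SE 0.74, adjusted p = 3.29e-05). Retnlb, a goblet cell protein that bacteria induce, read 113, 92.2, 79.7 and 59.6 against 3249.6, 972, 1685 and 1164 (log2 change -4.22, SE 0.49, adjusted p = 4.35e-06). Muc2, the main mucin of the colon, read 381, 636, 273 and 385 against 5295, 2506, 2887 and 2598 (log2 change -2.98, SE 0.39, adjusted p = 1.09e-05). Library IL10R_P19_100 was the highest for all 3, and the other 3 p19 libraries still lay above every antibiotic library, as the choice of these genes required. Reg4, Clca1, Fcgbp, Spink4, Clca3b and Agr2, most of them goblet cell products, fell, with log2 changes between -3.97 and -2.84. Tff3, a trefoil peptide, fell by 2.40 (SE 0.23) and Ang4 by 5.12 (SE 0.74), and whether the goblet genes fell by 1 common factor was not tested. Of colonocyte markers Krt8 fell by 1.78, Epcam by 1.94 and Lypd8, which keeps flagellated bacteria from the epithelium, by 2.00 (SE 0.16, 0.18 and 0.19).

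Several of the largest falls belong to no epithelial list here. Cd177, a surface protein best known from neutrophils and here on the list of monocyte markers, read 8.71, 18.8, 8.48 and 10.6 in IL10R_abx and 269, 186, 169 and 172 in IL10R_P19 (log2 change -4.03, SE 0.34, adjusted p = 1.16e-07), and 420.0, 436, 542, 485 and 225 in IL10R against 105.6 and 62.1 in CX. It was thus highest in IL10R and lowest with antibiotics, with p19 loss between IL10R and CX except that IL10R_P19_100 exceeded IL10R_68. The neutrophil markers Csf3r (1.23) and Il1r2 (-1.31) went opposite ways. Sprr2a3, a barrier protein of squamous and stressed epithelium, read 19.6, 30.1, 27.1 and 34.6 against 489, 351, 253 and 277 (log2 change -3.55, SE 0.20, adjusted p = 5.21e-10). Sprr2a1 and Sprr2a2 fell by 2.89 and 2.89, but the copies share nearly all their sequence and their values were almost the same in each library, so they count as 1 uncertain measurement. Gsdmc2 and Gsdmc4, of the gasdermin C family, fell, with log2 changes of -3.17 and -3.09 (SE 0.55 and 0.43), and they too are close relatives.

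The same differences were then looked up in littermate_abx against CX, 5 libraries that the comparison above does not use. In littermates 2250 genes (34% of those tested) were called, 1094 higher with antibiotics and 1156 lower. The changes of the 2 comparisons went together across the 6612 genes (Pearson r = 0.921, a description, since genes are not independent replicates). Of the 3191 genes called between the interventions 3129 (98.1%) had the same sign in littermates, against 85.1% of all genes tested, and 62 the opposite sign. In both comparisons 2016 genes were called with the same sign, 63.2% of the calls between the interventions and 89.6% of those in littermates, and no gene was called in opposite directions. Without CX 1 or CX 3, 1325 or 1443 genes were called in littermates.

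Among the named genes, Ccl2, Socs3, Cox6c and Ang4 went the same way. Ccl2 read 1099, 629.8 and 1101 in littermate_abx and 151 and 149 in CX (log2 change 2.60, SE 0.38, adjusted p = 6.02e-05). Socs3 read 1479, 1922 and 3058 and 511 and 634 (log2 change 1.85, SE 0.32, adjusted p = 2.73e-04), in mice that express Il10ra, so its level with antibiotics was in the same range with the receptor as without it (2736, 2413, 1584 and 1698 in IL10R_abx). Cox6c read 241, 234 and 264 and 500.2 and 446 (log2 change -0.94, SE 0.15, adjusted p = 1.49e-04), and Ang4 84.7, 55.5 and 51.6 and 1775 and 1294 (log2 change -4.58, SE 0.95, adjusted p = 0.00158). By list, 38 of 43 oxidative phosphorylation genes were lower in treated littermates, 18 of 30 of the IL-10 and STAT3 list higher, 16 of 34 of bacterial sensing higher and 3 lower, 22 of 32 immediate-early genes higher and 14 of 14 goblet markers lower. Over all tested genes 16.5% were higher and 17.5% lower. Fewer members were called in other lists, with 1 of 12 MHC class II, 1 of 20 class I and 2 of 25 interferon-gamma genes higher. Between the interventions these lists had 9, 8 and 9 higher. Of 17 chemokines 3 were higher and of 18 defence genes 3, against 11 and 9. The median changes of these lists in littermates were 0.22, 0.29, 0.53, 0.87 and 0.54 in that order, against 0.68, 0.30, 0.84, 1.26 and 0.84. The median of the type I interferon list was -0.08, against 0.53. Treated littermates and CX have 3 and 2 libraries, so fewer calls there do not show smaller changes. All 7 antibiotic libraries carry title numbers apart from the other groups' and the labels name no sequencing batch, so antibiotics and any other difference of those libraries cannot be told apart.

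**Figure D5:**
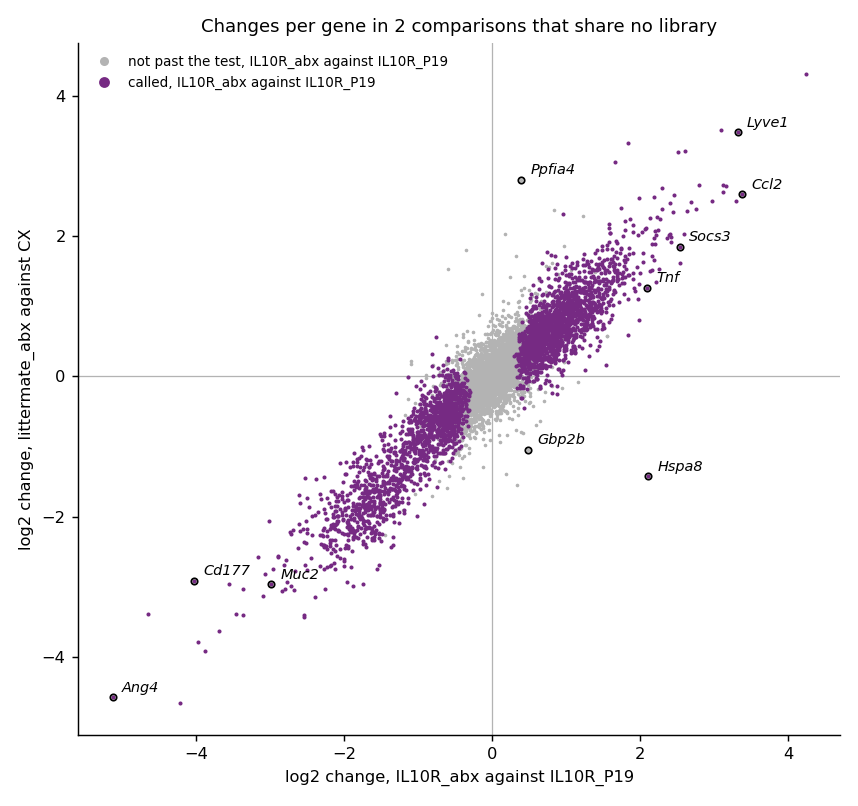
Log2 change of each of 6612 genes between IL10R_abx and IL10R_P19 (horizontal) and between littermate_abx and CX (vertical), 2 comparisons with no library in common, with genes called in the first in purple. The genes lie along 1 diagonal (r = 0.921), and Hspa8 is the called gene farthest from it.

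Whether the difference between the interventions departs from that between treated littermates and CX was tested gene by gene as a difference of the 2 differences. No gene passed in limma, and edgeR called 0 and DESeq2 3 on the recovered reads. In limma 175 genes (2.65%) had an unadjusted p under 0.05, fewer than the 1 in 20 that chance gives. With 2 CX libraries the intervals are wide, so this does not show that the 2 differences are equal. The genes named next were chosen after their values were seen, for small unadjusted p. Hspa8, a constitutive chaperone, read 1928, 2654, 320.4 and 457 in IL10R_abx, 185, 224, 234 and 221 in IL10R_P19, 538, 475 and 489 in littermate_abx and 1333 and 1358 in CX. It was higher in all IL10R_abx libraries than in IL10R_P19 and lower in all littermate_abx libraries than in CX, a difference of differences of 3.54 (SE 0.78, adjusted p = 0.767), and its spread within IL10R_abx was large. Gbp2b, an interferon-induced GTPase, read 305, 387, 187 and 209, 151, 170.3, 196 and 235, 62.0, 70.4 and 55.8 and 92.2 and 184 in the same order of groups, a difference of 1.54 (SE 0.37, adjusted p = 0.786). Ppfia4 had the smallest unadjusted p, with -2.41 (SE 0.47, adjusted p = 0.407), and stood at 21.7 and 32.5 in CX against 137 to 233, 66.96 to 209 and 157 to 217 in the other 3 groups.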

How the data were processed

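Sorted macrophages were lysed, and their poly-A RNA was bound to oligo-dT beads, reverse transcribed, pooled and sequenced after linear amplification, per the labels' protocols. In the deposited table the signal of a gene is its reads over a factor of the library, as 100% of the values were whole multiples of 1 read within 0.01 read. The submitters' processing notes list bcl2fastq, HISAT 0.1.6, HOMER and the build mm9, without a role or order. Which annotation was counted, whether strand was used and how the authors filtered genes were not stated in any source at hand. The 15605 rows that name no gene held no number and were left out.

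One limma fit (limma 3.58.1, R 4.3.3, mean-variance trend, robust variances) held all 18 libraries of the table, on log2(value + 0.997), which understates changes of low genes, for genes with a mean above 40.4 (the lower quartile). A gene was called at a two-sided Benjamini-Hochberg adjusted p under 0.05. SE is the standard error of a log2 change, and intervals are 95% intervals of the fit. Alternatives were a pseudocount of 10, no filter, TMM scaling, quantile normalization, no trend, edgeR 4.0.16 and DESeq2 1.42.0 on the recovered reads, the 8 libraries alone, fits without libraries, and the 7-marker scaling, which was added after seeing the data. The fit was tested on simulated data. Every pair of libraries within IL10R_abx or IL10R_P19 differed beyond counting noise. Shares of reads are over the listed genes. The rule named Il10ra, Il23a, Il1b, Tnf, Il12b, Il6, Nos2, Reg3b and Reg3g, then, among called genes whose level exceeded the median and whose groups did not overlap, the 15 with the largest rise and the 15 with the largest fall, and at most 4 called genes of each list, without predicted genes. Other members are named to describe their list, and some genes are not reported here. Groups and gene lists were chosen with earlier results of these data known. Promoter windows come from RefSeq on GRCm38.p6 by gene symbol, and no mm9 coordinate was used.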

Additional observations from a re-analysis of the deposited data

Results flagged for a closer look

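In 21 of 310 groups of 4 libraries (named genes and shares of reads) 1 library lay farther from the others than Dixon's 95% criterion allows, where chance gives about 1 in 20. Library IL10R_P19_100 stood apart for Cd177 (269 against 169 to 186), Gsdmc2 (2373 against 828 to 1010.4), Muc2 (5295 against 2506 to 2887), Cd68 (313 against 435 to 448), Ier3 (445 against 303 to 322), Psmb5 (219 against 143 to 146) and Psmb3 (93.9 against 69.1 to 73.3). It also stood apart in its share of reads from resident macrophage markers (2.44% against 3.75 to 3.99%) and from eosinophil and mast cell markers (0.00882% against 0.00162 to 0.00254%), a list of which only Ear2 is listed. Library IL10R_abx_161 stood apart for Nos2 (9.40 against 1.70 to 2.88), Ccl2 (1166 against 725 to 775), Cd163 (457 against 632 to 662), Ang4 (73.3 against 36.5 to 40.7), S100a6 (1977 against 851 to 1034), Clec10a (261 against 165 to 172) and Tnfsf9 (258 against 117 to 140.3). The others were Il12b in IL10R_abx_160 (10.9 against 4.80 to 5.64), Reg3b in IL10R_P19_105 (87.5 against 1.30 to 8.70), C1qa in IL10R_abx_160 (13168 against 10790.0 to 10861), Lypd8 in IL10R_abx_495 (1094 against 1486 to 1543) and H2-DMa in IL10R_abx_495 (1880.3 against 2141 to 2184). Each group is the 4 libraries of 1 title, and values are normalised read counts unless given as percent. Ccl2, Cd163, Ang4, Gsdmc2, Muc2, Cd68 and the resident macrophage share did not overlap between IL10R_abx and IL10R_P19 with these libraries included. For Ccl2, Cd163, Ang4, Gsdmc2 and Muc2 this was a condition of their choice. Il12b was too low to be tested, and Nos2 and Reg3b did not pass.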

How the results depend on the processing

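The count for IL10R_abx against IL10R_P19 lay between 2748 and 4754 over 19 alternatives (2752 to 3213 with 1 library left out), within 1.5 times of 3191. The count for littermate_abx against CX was 1325 to 2058 with 1 library left out, and 1325 without CX 1 and 1443 without CX 3. For IL10R against CX it was 20 to 741 (20 without CX 1, 94 without CX 3, 413 without IL10R 32), 1101 with DESeq2 and 5587 under the marker scaling. For the difference of differences it was 0 to 1 with 1 library left out (1 without IL10R_P19_100 or IL10R_abx_495), 3 with DESeq2 and 1 under the marker scaling.

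Scaling to the 7 macrophage markers, chosen after the data were seen, turned the direction of these log2 changes: Il1b -0.54, Reg3g -0.13, Batf3 -0.024, Cd4 -0.19, Cd22 -0.041, Xbp1 -0.56, Bst2 -0.018, H2-M3 -0.10, H2-D1 -0.25, Calr -0.28, H2-Aa -0.10, Cd74 -0.32, H2-DMa -0.47, Tgfb1 -0.051, Tgfbi -0.052, Hsp90b1 -0.17, Pcna -0.36 and Mcm3 -0.19. The members called higher then numbered: antimicrobial and oxidative defence 1, interferon-gamma-inducible GTPases and regulators 1, type I interferon-stimulated genes 1, MHC class I and immunoproteasome 0, MHC class II and co-stimulation 0, bacterial sensing and NF-kB 7, lysosome and phagocytosis 2, growth factors, matrix and remodelling 2, unfolded protein response 2, iron and haem handling 2 and Fc receptors and C-type lectins 2, each fewer than those lower or with a median of the other sign, and 63 for the genes lower in IL10R than in CX. Elsewhere only changes that had not passed turned sign: Il10ra 0.18 and Nos2 0.32 with quantile normalization, Il1b -0.033 without IL10R_abx_160 and IL10R_abx_161, Il10ra 0.031 without IL10R_abx_495 and IL10R_abx_497, Reg3g -0.17 without IL10R_abx_160, and Reg3b -0.12 and Reg3g -0.21 without IL10R_abx_495 (Reg3b up to 2.20 and Reg3g up to 1.66 with 1 library left out). The cause was not tested. Of 144 named genes 89 kept direction and side of the threshold under every alternative run. No paired analysis was possible because the groups compared share no number in their labels. Depth limits the antibiotic libraries most, in which 1 read is worth 0.961 to 2.18 against 0.508 to 0.952 in IL10R_P19.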

Other observations

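Clock genes, listed after their values were seen, differed between the groups. Dbp, an output of the circadian clock, read 89.2, 82.8, 76.3 and 120.1 in IL10R_abx, 15.7, 25.7, 43.6 and 35.0 in IL10R_P19, 178, 121 and 240.2 in littermate_abx and 17.6 and 22.2 in CX (log2 change 1.66, SE 0.33, adjusted p = 4.19e-04 by limma for IL10R_abx against IL10R_P19). All 7 antibiotic libraries lay above all 6 libraries of the other 2 groups. Per1 rose by 1.04 (SE 0.18, adjusted p = 9.12e-05), Tef by 1.05 (SE 0.24, adjusted p = 0.00147) and Nr1d1, the repressor REV-ERB alpha, by 0.96 (SE 0.32, adjusted p = 0.0206), the last with overlapping groups. Arntl (-0.02, adjusted p = 0.953) and Clock (-0.18, adjusted p = 0.575), the activators of the clock, did not pass. Of 14 clock genes written down 6 were tested. The hour at which tissue was taken is not given in the labels, and its part in any difference between these groups was not tested.

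Among leukotriene genes, also chosen after their values were seen, Alox5 and Alox5ap were higher in IL10R_abx. Alox5, the lipoxygenase that starts leukotriene synthesis, read 150.2, 137, 163 and 109.5 in IL10R_abx and 23.5, 29.5, 38.4 and 29.0 in IL10R_P19 (log2 change 2.19, SE 0.39, adjusted p = 1.71e-04 by limma). Alox5ap, the protein that presents arachidonic acid to it, read 631, 562, 648 and 537 against 83.5, 108, 145 and 119 (log2 change 2.40, SE 0.25, adjusted p = 8.09e-07 by limma). The groups did not overlap for either gene. Treated littermates read 618, 481 and 742 for Alox5ap and CX 182 and 119.6. Lta4h, which makes leukotriene B4, fell by 0.50 (SE 0.18, adjusted p = 0.0245). Ltc4s did not pass and its groups overlapped (log2 change 1.39, SE 0.61, adjusted p = 0.0686 by limma). The cyclooxygenases Ptgs1 (-0.14, adjusted p = 0.687) and Ptgs2 (0.47, adjusted p = 0.357) did not pass either. Of 10 tested members of the list, which holds leukotriene and prostanoid enzymes, 5 rose and 2 fell, against 25.8% and 22.4% of all genes.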
